A study of Homo sapiens with 12 samples.

Results

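The genes described here are 10 that are widely used as a readout of signalling through the kinase ERK: the dual-specificity phosphatases DUSP4, DUSP5 and DUSP6, the Sprouty genes SPRY1, SPRY2 and SPRY4, the ETS transcription factors ETV4 and ETV5, and the early transcription factors FOSL1 and EGR1. They were taken by name from the protein-coding intervals of the count table. Each of the 10 had 1 such interval, out of 44755 gene intervals used, and all 10 passed the filter on low counts that left 24900 genes to test.

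ERK is the last kinase of a relay that runs from growth factor receptors through RAS, RAF and MEK. Active ERK phosphorylates transcription factors, and cells answer with immediate early genes such as EGR1, with later factors such as FOSL1, ETV4 and ETV5, and with inhibitors that act back on the pathway. The DUSP phosphatases remove the activating phosphates from ERK, and Sprouty proteins act further up, between the receptor and RAF. In glioblastoma the pathway is often driven by receptor amplification or by loss of NF1, and this gene set is commonly read as its output.

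A172 is an established human glioblastoma cell line. RNA sequencing was done on cells that received siRNA-1 against uc.110, siRNA-2 against uc.110 or a scrambled control siRNA, with 4 libraries in each of the 3 groups. The question of the study was which genes change when uc.110, a transcribed ultraconserved element, is knocked down. The cells are listed as adherent and as WT in genotype in all 3 groups. Every group, the scrambled one included, was exposed to Lipofectamine 2000, with 9 µL of it and 3 µL of a 20 µM siRNA for 6 h on the day after seeding, and was then given fresh medium with serum. RNA was sent for sequencing on day 2, which the labels mark as post transfection. Whether a group's 4 libraries were separate cultures is not in the labels, so the p-values cover the spread among these samples alone, which may be technical.

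Libraries held 42740241 to 52899850 reads in gene intervals. uc.110 itself had 2, 0, 1 and 2 reads in the siRNA-1 libraries, 3, 0, 4 and 0 in the siRNA-2 libraries, and 4, 0, 1 and 6 in the scrambled libraries, so a difference in the target was not detectable at this depth. The glial genes VIM, NES, CD44 and SOX9 were abundant. GFAP averaged 8.50, 7.55 and 6.30 CPM (a count scaled by the library's size) with siRNA-1, siRNA-2 and scrambled. S100B had 0 reads with either siRNA and 1 read in the scrambled libraries together. Of the hematopoietic and endothelial markers, CD3E averaged at most 0.0429 CPM in any group, the lowest of the list. CSF1R averaged 178, 162 and 247 CPM with siRNA-1, siRNA-2 and scrambled. The summed level of 8 glial markers was 2810 to 3157 CPM with siRNA-1, 3290 to 3450 CPM with siRNA-2 and 3730 to 4086 CPM with scrambled, most of it from VIM, which averaged 1691, 1953 and 2644 CPM in that order. The other glial markers did not all follow VIM: OLIG2 averaged 8.98, 9.74 and 4.65 CPM, NES 521, 368 and 445 CPM, and CD44 593, 862 and 698 CPM. That of 7 hematopoietic and endothelial markers with an interval was 175 to 193, 160 to 181 and 237 to 269 CPM in the same order of groups, most of it from CSF1R, and that of 8 neuron and oligodendrocyte markers was 29.1 to 33.5, 31.5 to 34.4 and 35.3 to 38.8 CPM. The summed level of 14 interferon-stimulated genes was 3196 to 3438 CPM with siRNA-1, 4320 to 4744 CPM with siRNA-2 and 611 to 1337 CPM with scrambled. The part of these differences in the results below was not tested. In cultured cells measured in bulk, fewer cells that express a gene and less of its RNA per cell cannot be told apart.

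A few libraries, 3 in all, stood apart. Scrambled replicate 1 was the highest scrambled library for 14 of the 14 interferon genes, with a median ratio of 1.98 to the mean of the remaining scrambled libraries. 45S ribosomal RNA took 15.01% of counts in replicate 3 of siRNA-1 and 8.58% in replicate 2 of siRNA-2, against 1.70% to 5.09% in the other 10 libraries. Without these 3 libraries together, an alternative chosen after seeing the data, the same 8 members were higher with siRNA-1 and FOSL1 was also called lower. With siRNA-2, 7 members were higher, since ETV4 was no longer called. Of all 24985 genes tested in that run, 5886 were called higher and 6099 lower with siRNA-1. With siRNA-2, 6513 were called higher and 6478 lower.

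With siRNA-1, 8 of the 10 genes rose, none was called lower, and ETV4 and FOSL1 were not called. With siRNA-2, 8 of the 10 rose, none was called lower, and SPRY1 and EGR1 were not called. A gene was called at an adjusted p under 0.05 in edgeR's quasi-likelihood test with Benjamini-Hochberg adjustment over all 24900 genes, against the same 4 scrambled libraries in both comparisons. The response was broad: 28.6% of all tested genes were called higher with siRNA-1 and 29.9% with siRNA-2, and 53.4% and 56.1% were called in either direction. Among the 16658 genes with an average log2 CPM of at least 1, as these 10 genes have, 35.2% were called higher with siRNA-1 and 35.2% with siRNA-2, and 66.1% and 68.5% in either direction. The 10 genes had a median log2 fold change of 0.39 with siRNA-1 and 0.41 with siRNA-2, where the median over all tested genes was 0.01 in both comparisons. For 8 of the 10 genes all siRNA-1 libraries lay above all scrambled libraries, as for 25.2% of all tested genes, and for 8 of the 10 all siRNA-2 libraries did, as for 27.8%.

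**Figure D1:**
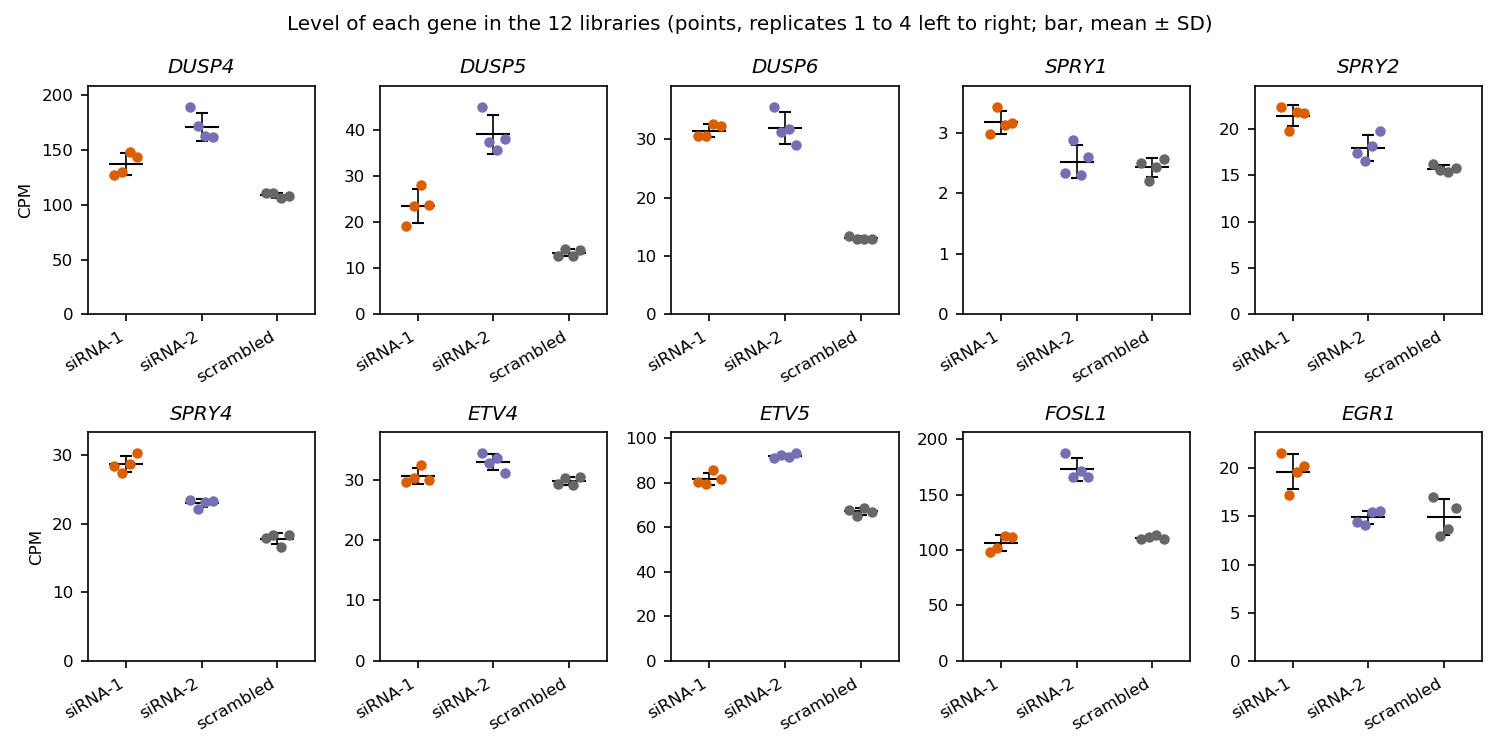
Level of each of the 10 genes in CPM (vertical axes, from 0) in the siRNA-1, siRNA-2 and scrambled groups; points are the 4 libraries of a group and the bar is their mean ± SD. DUSP6 sits between 28.99 and 35.6 CPM in all 8 siRNA libraries, above all scrambled libraries, while SPRY4 and EGR1 are highest with siRNA-1 and FOSL1 with siRNA-2.

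DUSP5 and DUSP6 had the largest fold changes of the 10 genes with both siRNAs. All 3 phosphatase genes rose with both siRNAs, by 1.26 to 2.41 times with siRNA-1 and by 1.57 to 2.91 times with siRNA-2.

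DUSP6 encodes a cytoplasmic phosphatase that is selective for ERK. It had 30.5, 30.5, 32.5 and 32.2 CPM in the siRNA-1 libraries, 35.6, 31.3, 31.8 and 28.99 CPM in the siRNA-2 libraries, and 13.5, 12.9, 12.9 and 12.9 CPM in the scrambled libraries. Every siRNA library was above every scrambled library, and the 2 siRNA groups overlapped. The log2 fold change was 1.27 (SE 0.06, edgeR adjusted p = 1.54e-15) with siRNA-1 and 1.29 (SE 0.06, edgeR adjusted p = 9.61e-16) with siRNA-2. The DUSP6 interval, which spans 89333209 to 89352859 of chromosome 12 (hg38, minus strand), reaches 14026 bases past the RefSeq gene on the 3′ side. It also overlaps an lncRNA on the other strand (89351016 to 89353271) and may share reads with it. The lncRNA interval held at most 39.9% of the DUSP6 reads with siRNA-1, 41.7% with siRNA-2 and 41.6% with scrambled. With those reads taken off, the DUSP6 level was 18.9 ± 0.67 CPM with siRNA-1, 18.6 ± 1.86 CPM with siRNA-2 and 7.62 ± 0.10 CPM with scrambled (SD, n = 4 each). The log2 fold changes were then 1.31 and 1.29. The lncRNA interval itself rose by 1.21 with siRNA-1 and 1.29 with siRNA-2 on the log2 scale (edgeR adjusted p = 1.24e-12 and 2.59e-13). This subtraction, chosen after seeing the data, removes every read of the lncRNA interval, including any outside DUSP6. The part of reads from beyond the gene was not tested.

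DUSP5 encodes a nuclear phosphatase that binds ERK and is itself induced by ERK. It had 19.1, 23.5, 28.2 and 23.7 CPM with siRNA-1, 45.1, 37.4, 35.7 and 38.2 CPM with siRNA-2, and 12.7, 14.3, 12.7 and 14.0 CPM with scrambled. The groups did not overlap: siRNA-2 was highest, siRNA-1 lay in between and scrambled was lowest. The spread within a group was the widest among the phosphatases, with a coefficient of variation of 15.7% with siRNA-1, 10.6% with siRNA-2 and 6.14% with scrambled. On the log2 scale DUSP5 rose by 0.81 (SE 0.11, edgeR adjusted p = 4.88e-05) with siRNA-1 and 1.54 (SE 0.11, edgeR adjusted p = 9.05e-08) with siRNA-2. In siRNA-1 replicate 3, the library with the high ribosomal RNA share, DUSP5 was the highest of its group. Its interval, at 110497868 to 110515977 of chromosome 10 (plus strand), overlaps no other interval used.

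DUSP4 encodes another nuclear phosphatase, which acts on ERK and other MAP kinases. It was the most abundant phosphatase of the set, with 127, 130, 148 and 143 CPM with siRNA-1, 189, 171, 162 and 162 CPM with siRNA-2, and 111, 111, 106 and 108 CPM with scrambled. The 3 groups were again ordered with no overlap, siRNA-2 above siRNA-1 above scrambled. On the log2 scale DUSP4 rose by 0.33 (SE 0.05, edgeR adjusted p = 1.51e-05) with siRNA-1 and 0.66 (SE 0.05, edgeR adjusted p = 8.84e-10) with siRNA-2. Its interval lies at 29326133 to 29350750 of chromosome 8 (minus strand).

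Of the phosphatases, DUSP6 was past 2-fold with siRNA-1, and DUSP5 and DUSP6 with siRNA-2. A called rise of at least 2-fold was seen for 5.12% of all tested genes with siRNA-1 and for 6.38% with siRNA-2.

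The Sprouty genes, whose products restrain receptor signalling to RAS and RAF, all rose with siRNA-1, by 1.31 to 1.61 times. With siRNA-2, SPRY2 and SPRY4 rose and SPRY1 was not called.

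SPRY4 had 28.4, 27.4, 28.6 and 30.2 CPM with siRNA-1, 23.5, 22.2, 23.2 and 23.3 CPM with siRNA-2, and 17.9, 18.3, 16.6 and 18.3 CPM with scrambled. No group overlapped another, and here siRNA-1 was highest, in contrast to DUSP4 and DUSP5. On the log2 scale SPRY4 rose by 0.69 (SE 0.05, edgeR adjusted p = 1.37e-11) with siRNA-1 and 0.37 (SE 0.05, edgeR adjusted p = 5.79e-07) with siRNA-2. The interval, at 142310428 to 142325055 of chromosome 5 (minus strand), contains the lncRNA SPRY4-IT1, which held at most 4.57%, 4.58% and 3.97% of its reads with siRNA-1, siRNA-2 and scrambled.

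SPRY2 had 22.4, 19.8, 21.8 and 21.7 CPM with siRNA-1, 17.4, 16.5, 18.1 and 19.7 CPM with siRNA-2, and 16.2, 15.6, 15.3 and 15.7 CPM with scrambled. The siRNA-1 libraries were above all others, and the lowest siRNA-2 library was just above the highest scrambled library. SPRY2 rose on the log2 scale by 0.45 (SE 0.06, edgeR adjusted p = 4.22e-07) with siRNA-1 and 0.19 (SE 0.06, edgeR adjusted p = 0.00738) with siRNA-2. The change with siRNA-2 was not called when all named intervals of the table were fitted (edgeR adjusted p = 0.0550). The SPRY2 interval, at 80264324 to 80341126 of chromosome 13 (minus strand), reaches 71652 bases past the RefSeq gene on the 3′ side, so it can count reads from well outside the gene.

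The 250 bases before the first of 3 RefSeq starts of SPRY2 (GRCh38.p14, chr13:80341127-80341376, minus strand) are shown because ETS factors such as ETV4 and ETV5 bind sites with the core CCGGAA, set in capitals, which lies 142 to 137 bases before the start.
SPRY2: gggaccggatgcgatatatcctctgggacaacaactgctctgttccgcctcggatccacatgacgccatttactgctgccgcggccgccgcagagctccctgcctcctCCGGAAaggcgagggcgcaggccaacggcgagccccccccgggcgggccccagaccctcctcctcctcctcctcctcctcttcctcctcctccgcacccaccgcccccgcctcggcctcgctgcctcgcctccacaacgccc
The core was searched on both strands, and 14.5% of 35116 RefSeq promoter windows of the same length hold it. The windows of the other 2 SPRY2 starts do not hold it. RefSeq windows were at hand for 5 of the 10 genes (SPRY1, SPRY2, SPRY4, DUSP6 and EGR1). The same core was found in 1 window of SPRY1, and no match to any motif searched was found in those of DUSP6 and SPRY4.

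SPRY1 was the least abundant of the 10 genes, with 100 to 163 reads in a library. It had 2.98, 3.43, 3.12 and 3.16 CPM with siRNA-1, 2.33, 2.88, 2.29 and 2.59 CPM with siRNA-2, and 2.495, 2.196, 2.44 and 2.57 CPM with scrambled. The siRNA-1 libraries were above all others, and siRNA-2 and scrambled overlapped. SPRY1 had a log2 fold change of 0.39 (SE 0.12, edgeR adjusted p = 0.00880) with siRNA-1 and 0.06 (SE 0.12, edgeR adjusted p = 0.709) with siRNA-2, where the 95% interval of -0.19 to 0.31 does not exclude a rise as small as those of SPRY2 and ETV4. Its interval lies at 123396792 to 123406214 of chromosome 4 (plus strand).

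ETV4 and ETV5 are close relatives in the PEA3 group of ETS factors, and both are induced by ERK signalling in many tissues. ETV5 rose with both siRNAs, and ETV4 was called higher with siRNA-2, by 1.11 times.

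ETV5 had 80.1, 79.2, 85.4 and 81.7 CPM with siRNA-1, 90.8, 92.3, 91.7 and 93.1 CPM with siRNA-2, and 67.5, 65.0, 68.8 and 66.8 CPM with scrambled. The groups were separate, with siRNA-2 highest and scrambled lowest. ETV5 rose on the log2 scale by 0.28 (SE 0.04, edgeR adjusted p = 2.44e-07) with siRNA-1 and 0.46 (SE 0.04, edgeR adjusted p = 4.70e-11) with siRNA-2. The interval lies at 186045408 to 186114054 of chromosome 3 (minus strand).

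ETV4 had 29.6, 30.2, 32.5 and 29.9 CPM with siRNA-1, 34.3, 32.7, 33.5 and 31.1 CPM with siRNA-2, and 29.2, 30.3, 29.04 and 30.4 CPM with scrambled. The siRNA-1 and scrambled libraries overlapped, and all siRNA-2 libraries were above all scrambled libraries. ETV4 had a log2 fold change of 0.04 (SE 0.05, 95% interval -0.06 to 0.14, edgeR adjusted p = 0.507) with siRNA-1 and 0.15 (SE 0.05, edgeR adjusted p = 0.00938) with siRNA-2. The call with siRNA-2 was lost with no filter on low counts (edgeR adjusted p = 0.0573), with all named intervals fitted (0.109) and without the 3 libraries that stood apart (0.0819). The ETV4 interval, at 43527843 to 43579620 of chromosome 17 (minus strand), reaches 33280 bases past the RefSeq gene on the 5′ side and overlaps DHX8, which lies on the other strand, over 16957 bases. The DHX8 interval held more reads than the ETV4 interval in each of the 12 libraries, so all ETV4 reads could be shared. DHX8 encodes a splicing helicase and rose by 0.21 with siRNA-1 and 0.24 with siRNA-2 on the log2 scale (edgeR adjusted p = 3.26e-05 and 3.18e-06), and its part in the ETV4 value was not tested.

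FOSL1 and EGR1 split between the siRNAs. FOSL1, which encodes the AP-1 subunit FRA1, rose with siRNA-2, and EGR1, a zinc finger factor of the immediate early class, rose with siRNA-1.

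FOSL1 had 98.6, 101, 112 and 112 CPM with siRNA-1, 187, 166, 171.6 and 166 CPM with siRNA-2, and 110, 112, 113 and 110 CPM with scrambled. The siRNA-2 libraries were far above all others, while the siRNA-1 and scrambled libraries overlapped. FOSL1 had a log2 fold change of -0.07 (SE 0.04, 95% interval -0.16 to 0.02, edgeR adjusted p = 0.215) with siRNA-1 and 0.63 (SE 0.04, edgeR adjusted p = 7.28e-12) with siRNA-2. Without siRNA-1 replicate 3 the siRNA-1 value was -0.12 and was called lower (edgeR adjusted p = 0.0416).

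The FOSL1 interval, at 65890030 to 65900545 of chromosome 11 (minus strand), overlaps CCDC85B on the other strand over 2107 bases and FIBP over 425 bases. It reaches 2019 bases past the RefSeq gene on the 3′ side. The CCDC85B interval held reads worth at most 50.9% of the FOSL1 count with siRNA-1, 46.6% with siRNA-2 and 47.8% with scrambled. CCDC85B itself rose by 0.60 on the log2 scale with siRNA-2 (edgeR adjusted p = 6.69e-10) and was not called with siRNA-1 (0.02, edgeR adjusted p = 0.763). With the CCDC85B reads taken off, FOSL1 was 52.2 ± 3.89 CPM with siRNA-1, 92.1 ± 4.57 CPM with siRNA-2 and 58.0 ± 0.77 CPM with scrambled (SD, n = 4 each). FOSL1 then still rose with siRNA-2, by 0.67 on the log2 scale (edgeR adjusted p = 5.03e-12), and was called lower with siRNA-1, at -0.15 (edgeR adjusted p = 0.00749). This subtraction, chosen after seeing the data, removes every CCDC85B read, including any that lie outside FOSL1. It takes off no FIBP reads. The FIBP interval held 2194 to 2858 reads in a library, where FOSL1 held 4433 to 8809. As an upper bound, CCDC85B and FIBP together could hold nearly all FOSL1 reads with siRNA-1 and with scrambled. FIBP fell by 0.14 with siRNA-1 and 0.15 with siRNA-2 on the log2 scale (edgeR adjusted p = 0.00707 and 0.00478). Its part in the FOSL1 values was not tested.

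EGR1 had 21.6, 17.3, 19.6 and 20.2 CPM with siRNA-1, 14.5, 14.1, 15.4 and 15.5 CPM with siRNA-2, and 17.0, 13.0, 13.7 and 15.9 CPM with scrambled. All siRNA-1 libraries were above all others, the lowest of them only just above scrambled replicate 1, and the siRNA-2 libraries lay within the range of the scrambled ones. The log2 fold change with siRNA-1 was 0.40 (SE 0.08, edgeR adjusted p = 0.000162). With siRNA-2 the level was 1.00 times that of scrambled (log2 95% interval -0.16 to 0.16, edgeR adjusted p = 0.998). Scrambled replicate 1, the library with high interferon genes, held the highest scrambled EGR1 level, at 1.20 times the mean of the other scrambled libraries, against 0.930 to 1.05 times for the other 9 genes.

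The 250 bases before the EGR1 start (GRCh38.p14, chr5:138465229-138465478, plus strand) are shown because EGR1 is a textbook target of serum response factor, whose binding site is the CArG box; both CArG boxes, 105 to 96 and 83 to 74 bases before the start, are in capitals.
EGR1: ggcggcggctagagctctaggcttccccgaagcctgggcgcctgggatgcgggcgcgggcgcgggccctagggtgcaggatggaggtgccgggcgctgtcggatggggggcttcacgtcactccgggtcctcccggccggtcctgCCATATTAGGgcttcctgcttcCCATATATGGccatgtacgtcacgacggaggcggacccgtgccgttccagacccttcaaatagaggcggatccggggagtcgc
A CArG box, searched on both strands, is in 1.16% of the 35116 windows. The AP-1 motif TGANTCA, in 6.57% of windows, and the cyclic AMP response element TGACGTCA, in 1.65%, were not found in any window of the 5 genes. These data hold no measure of binding, and the capitals do not overlap another motif searched.

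Between the siRNAs the 10 genes did not move as 1 block. In siRNA-2 against siRNA-1 libraries, 4 genes were higher (DUSP4, DUSP5, ETV5 and FOSL1), 4 were lower (SPRY1, SPRY2, SPRY4 and EGR1), and DUSP6 and ETV4 were not called. Over all tested genes 15.8% were called higher and 16.8% lower in this comparison, 32.6% in all, and 42.5% were called among genes with an average log2 CPM of at least 1.

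The log2 fold change of siRNA-2 against siRNA-1 was 0.73 for DUSP5 (SE 0.10, edgeR adjusted p = 0.000187) and 0.70 for FOSL1 (SE 0.04, edgeR adjusted p = 9.26e-12). DUSP4 differed by 0.32 (SE 0.05, edgeR adjusted p = 5.57e-05) and ETV5 by 0.17 (SE 0.04, edgeR adjusted p = 0.000461). For each of these 4 genes all siRNA-2 libraries lay above all siRNA-1 libraries, as for 15.7% of all tested genes.

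In the other direction, EGR1 was at -0.40 (SE 0.08, edgeR adjusted p = 0.000358), SPRY4 at -0.32 (SE 0.05, edgeR adjusted p = 1.50e-05), SPRY2 at -0.25 (SE 0.06, edgeR adjusted p = 0.00117) and SPRY1 at -0.33 (SE 0.12, edgeR adjusted p = 0.0371). For each of these 4 genes all siRNA-2 libraries lay below all siRNA-1 libraries, as for 16.2% of all tested genes. All 3 Sprouty genes were therefore lower with siRNA-2 than with siRNA-1, while of the 3 phosphatases none was. The SPRY1 call is the least firm: it was lost without siRNA-1 replicate 2 (edgeR adjusted p = 0.114), 3 (0.0595) or 4 (0.0634), and without siRNA-2 replicate 1 (0.0932), 3 (0.103) or 4 (0.0555).

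DUSP6 differed by 0.02 between the siRNAs (SE 0.05, edgeR adjusted p = 0.816), with a 95% interval of -0.09 to 0.13. ETV4 differed by 0.11 (SE 0.05, 95% interval 0.01 to 0.20, edgeR adjusted p = 0.0819) and was called without siRNA-1 replicate 3 (edgeR adjusted p = 0.0335) or siRNA-2 replicate 4 (0.0470).

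**Figure D2:**
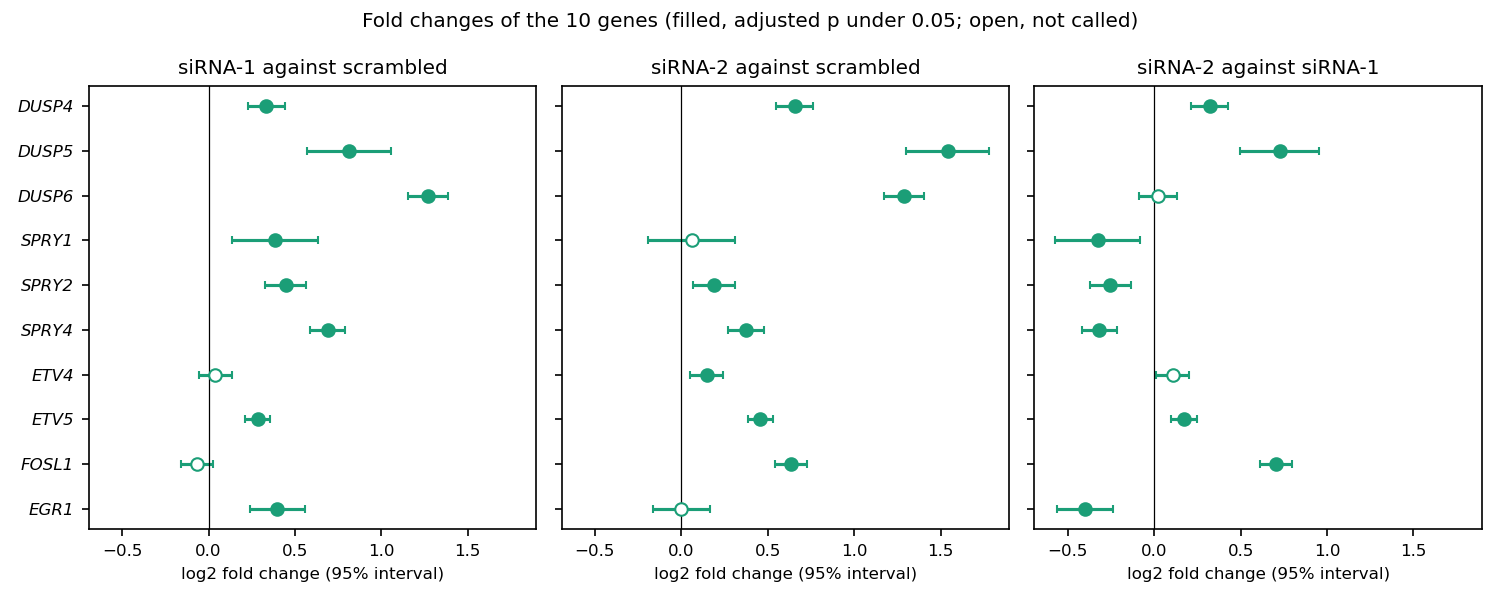
Log2 fold changes of the 10 genes (horizontal axes) with 95% intervals for each siRNA against scrambled and for siRNA-2 against siRNA-1; filled points were called at an adjusted p under 0.05. In the comparison between the siRNAs DUSP4, DUSP5, ETV5 and FOSL1 lie right of 0 and the 3 Sprouty genes and EGR1 left of it.

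The pattern of a gene over the 12 libraries was described by its log2 CPM minus its own mean. The distance between genes is the root mean square of the difference of these values, in log2 units, and it is a description with no test. The closest pairs among the 10 genes were DUSP4 and ETV5 (0.11), SPRY2 and EGR1 (0.12) and SPRY2 and SPRY4 (0.12), and the farthest was DUSP5 and EGR1 (0.68). DUSP4 and ETV5 were both highest with siRNA-2, in between with siRNA-1 and lowest with scrambled, while SPRY2, SPRY4 and EGR1 peaked with siRNA-1. DUSP5 and DUSP6, the phosphatases that changed most, were 0.32 apart.

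**Figure D3:**
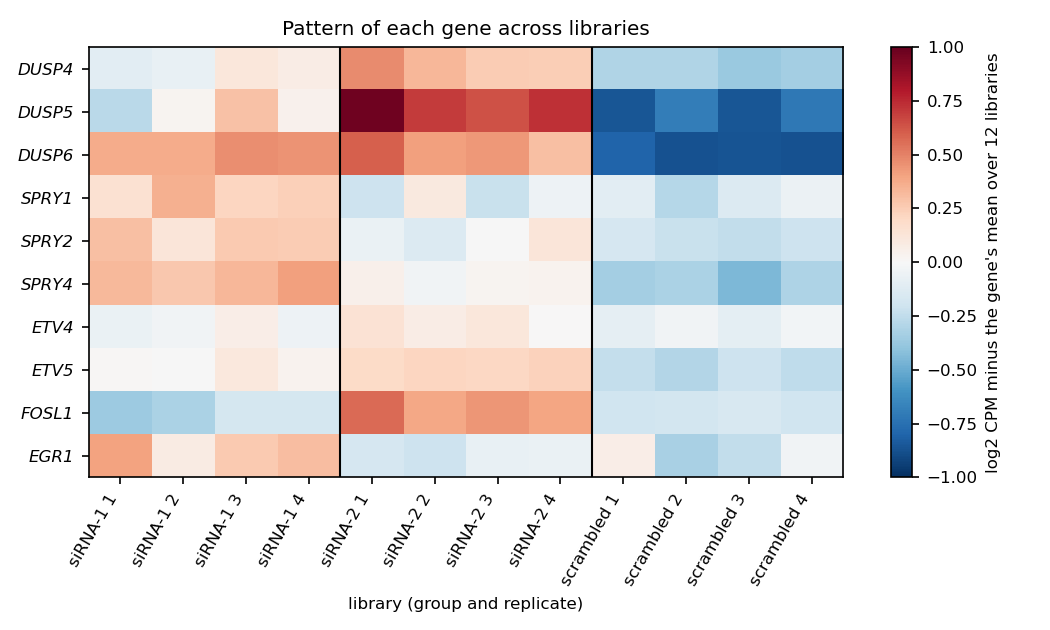
Log2 CPM of each gene minus its mean over the 12 libraries (colour, blue below the mean and red above it), with the siRNA-1, siRNA-2 and scrambled libraries from left to right. The DUSP6 row is red in all 8 siRNA libraries, the Sprouty and EGR1 rows are reddest with siRNA-1, and the DUSP5 and FOSL1 rows are reddest with siRNA-2.

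Outside the set, the same measure was taken to 12371 protein-coding genes with an average log2 CPM of at least 1, and the 3 nearest to each gene are given. LRRC4B (0.06), the neurotrophin gene BDNF (0.07) and TUBB4A (0.07) were nearest to DUSP6. SEMA3F (0.09), a secreted semaphorin, ACVRL1 (0.11) and PPL (0.13) were nearest to DUSP5, and DMTN (0.04), PDZD7 (0.04) and NUTM2B (0.05) to DUSP4. Of the 3 phosphatases, DUSP5 had the most distant nearest genes.

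Among the Sprouty genes, NUDT16L1, SH3D21 (0.05 each) and SIPA1L1 (0.06) were nearest to SPRY4. ZDHHC9, CHST15 (0.05 each) and ANAPC13 (0.06) were nearest to SPRY2, and EIF1AD, MTRES1 and CLCN6 (0.08 each) to SPRY1. RABGEF1, PSPH and CLINT1 (0.04 each) were nearest to ETV4, and TMEM140, RPRD2 and AFF1 (0.03 each) to ETV5. LOC100996842 (0.06), TPSG1 (0.07) and RHOB (0.08) were nearest to FOSL1, and PIK3IP1 (0.09), an inhibitor of PI3 kinase, TSTD2 (0.09) and PLEKHB1 (0.10) to EGR1.

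Levels of different genes were compared per kb of annotated exon (GENCODE release 29). In scrambled libraries FOSL1 was highest, at 58.9 ± 0.78 CPM per kb, followed by DUSP4 at 14.98 ± 0.32, ETV5 at 11.6 ± 0.27 and ETV4 at 8.24 ± 0.19 (SD, n = 4). SPRY2 (5.17 ± 0.12), DUSP5 (5.14 ± 0.32) and EGR1 (4.75 ± 0.60) followed with overlapping libraries, as did DUSP6 (2.82 ± 0.06) and SPRY4 (2.71 ± 0.12). SPRY1 was lowest at 0.612 ± 0.04 CPM per kb. FOSL1, DUSP6, SPRY4 and ETV4 levels can include the shared reads described above, and the SPRY2, ETV4 and DUSP6 levels can include reads from beyond the gene. So can those of DUSP4, ETV5, DUSP5, SPRY1 and FOSL1, whose intervals reach up to 6931, 4965, 4444, 2454 and 2019 bases past the RefSeq gene.

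With siRNA-1 DUSP5 reached 9.04 ± 1.42 CPM per kb and overlapped ETV4 at 8.47 ± 0.36, and DUSP6, at 6.79 ± 0.23, overlapped SPRY2 at 7.05 ± 0.37. With siRNA-2 DUSP5 reached 14.96 ± 1.58 CPM per kb and overlapped ETV5 at 15.9 ± 0.17, and DUSP6 at 6.89 ± 0.59 overlapped SPRY2 at 5.90 ± 0.45. In every group FOSL1 stayed highest, DUSP4 was next and SPRY1 was lowest.

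**Figure D4:**
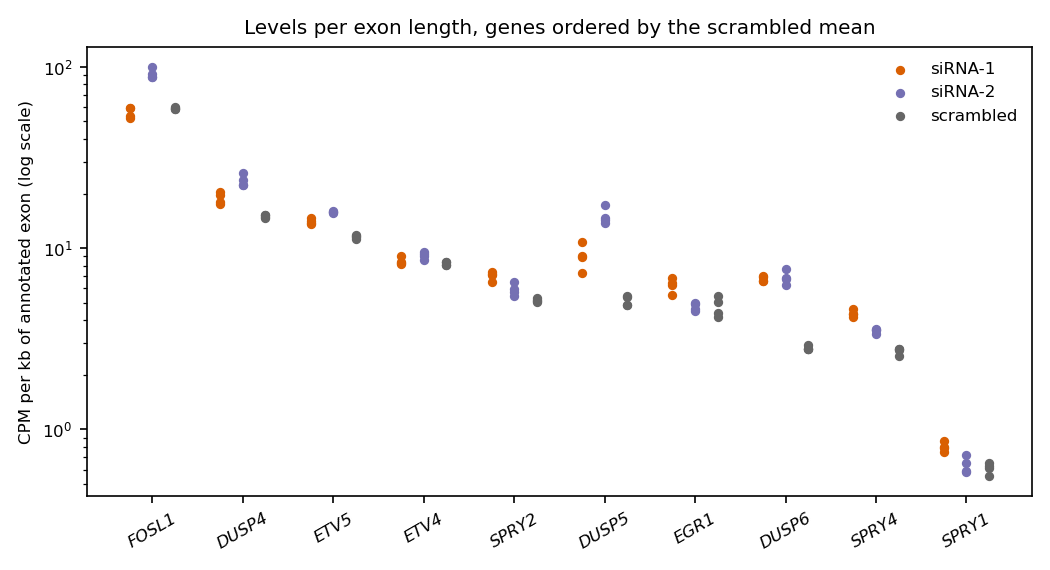
Level of each gene in CPM per kb of annotated exon (vertical log axis) in the siRNA-1, siRNA-2 and scrambled libraries, with genes ordered by their scrambled mean; each point is 1 library. FOSL1 is the highest gene and SPRY1 the lowest in each group, and DUSP5 and DUSP6 stand higher in the order with siRNA-2 than with scrambled.

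Around the 10 genes, 6 lists of RAS to ERK pathway genes were read from the same test. Together they held 85 tested genes, of which 32 were higher and 31 lower with siRNA-1, and 37 higher and 31 lower with siRNA-2. Over all tested genes 28.6% were called higher and 24.8% lower with siRNA-1, and 29.9% higher and 26.1% lower with siRNA-2, and 35.2% were called higher with either siRNA among genes with an average log2 CPM of at least 1. The 10 feedback and output genes were 8 higher and 0 lower in each of these comparisons, and all comparisons with scrambled share its 4 libraries.

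Among 21 tested genes of the cascade from RAS to ERK and its target kinases, 6 were higher and 9 lower with siRNA-1, and 7 higher and 7 lower with siRNA-2, with medians of -0.04 and 0.02 on the log2 scale beside 0.01 in both comparisons over all tested genes. MAPK3, which encodes ERK1, averaged 77.0 ± 3.46 CPM with siRNA-1, 71.1 ± 3.30 CPM with siRNA-2 and 32.0 ± 0.64 CPM with scrambled (SD, n = 4 each). It rose by 1.27 and 1.15 on the log2 scale (edgeR adjusted p = 1.44e-17 and 6.12e-17), in an interval of which at most 50.7% of reads lie in the overlapping LOC101928595.

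NRAS, a RAS isoform, fell by 0.51 with siRNA-1 and by 0.86 with siRNA-2 on the log2 scale (edgeR adjusted p = 1.77e-11 and 9.11e-16). PTPN11, the phosphatase SHP2, which carries receptor signals to RAS, was at -0.73 and -0.83, but all of its reads could lie in the overlapping ribosomal protein gene RPL6. RPS6KA2, a kinase activated by ERK, went opposite ways: it rose by 0.31 with siRNA-1 and fell by 0.95 with siRNA-2 (edgeR adjusted p = 4.93e-08 and 8.27e-17), and the siRNA-2 against siRNA-1 value was -1.26 (SE 0.04, edgeR adjusted p = 6.83e-18).

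Of 17 tested inhibitors of RAS and ERK outside the set, 7 were higher and 6 lower with siRNA-1, and 8 higher and 6 lower with siRNA-2. Over all tested genes, 28.6% and 29.9% were called higher and 24.8% and 26.1% lower. The medians of the inhibitors were -0.04 and 0.05 on the log2 scale. DUSP1, an immediate early phosphatase of ERK, p38 and JNK, averaged 39.7 ± 3.22 CPM with siRNA-1, 50.5 ± 3.92 CPM with siRNA-2 and 19.7 ± 1.03 CPM with scrambled. It rose by 1.01 and 1.36 on the log2 scale (edgeR adjusted p = 1.58e-12 and 6.47e-15). DUSP3 fell by 0.51 and by 0.40 (edgeR adjusted p = 3.31e-12 and 2.59e-10). DUSP7, a close relative of DUSP6, fell by 0.75 with siRNA-1 and rose by 0.42 with siRNA-2 (edgeR adjusted p = 3.65e-11 and 3.37e-07), in an interval that shares at most 44.8% of its reads with LOC105377089.

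RASA1, a GTPase activator that switches RAS off, was at -0.73 with siRNA-1 and -0.51 with siRNA-2, but all of its reads could lie in the overlapping CCNH. DUSP10, a phosphatase of the stress kinases p38 and JNK and the only 1 of 3 such genes that was tested, rose by 0.80 and 1.16 (edgeR adjusted p = 2.45e-08 and 2.41e-11).

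Of 17 tested immediate early genes outside the set, 8 were higher and 5 lower with siRNA-1, and 7 higher and 5 lower with siRNA-2, with medians of 0.14 and 0.02 on the log2 scale. All tested genes were called higher at 28.6% and 29.9% and lower at 24.8% and 26.1%. JUN, an AP-1 partner of FOSL1, averaged 135 ± 8.39 CPM with siRNA-1, 140 ± 9.58 CPM with siRNA-2 and 79.2 ± 2.06 CPM with scrambled, a rise of 0.77 and 0.83 on the log2 scale (edgeR adjusted p = 1.004e-12 and 2.37e-13). NR4A1, an orphan nuclear receptor, rose by 0.91 and 1.52 (edgeR adjusted p = 1.05e-08 and 4.17e-13). Its interval shares at most 17.2% of its reads with NR4A1AS and 10.4% with LOC107984510. KLF4 fell by 1.15 and by 0.61 (edgeR adjusted p = 6.46e-12 and 2.50e-07), and KLF6 by 0.57 and by 0.10 (edgeR adjusted p = 1.71e-12 and 0.0248), both zinc finger factors.

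The other ETS factors went mostly the other way from ETV5. Of 12 tested, 1 was higher and 9 lower with siRNA-1, and 4 higher and 7 lower with siRNA-2, with medians of -0.22 and -0.16 on the log2 scale. Over all tested genes 24.8% were called lower with siRNA-1 and 26.1% with siRNA-2. ETS1, the founding member of the family, averaged 91.7 ± 2.12 CPM with siRNA-1, 71.9 ± 3.801 CPM with siRNA-2 and 131 ± 3.48 CPM with scrambled. It fell by 0.52 and by 0.87 on the log2 scale (edgeR adjusted p = 2.70e-11 and 1.55e-15). At most 23.7% of ETS1 reads lie in the overlapping LOC105369566. ELK3 and ELK4, which work with serum response factor at CArG boxes, also fell: ELK3 by 0.58 and by 0.46 (edgeR adjusted p = 8.41e-13 and 5.31e-11), ELK4 by 0.33 and by 0.70 (edgeR adjusted p = 5.77e-07 and 1.04e-12). GABPA was at -0.20 and -0.54, but all of its reads could lie in the overlapping ATP5PF.

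Of 17 tested genes from other signatures of MEK output, 9 were higher and 2 lower with siRNA-1, and 10 higher and 6 lower with siRNA-2, with medians of 0.20 and 0.35 on the log2 scale. The shares called higher over all tested genes were 28.6% and 29.9%, and those called lower 24.8% and 26.1%. PLAT, tissue plasminogen activator, rose by 1.18 and 1.96 (edgeR adjusted p = 1.68e-17 and 4.25e-21). IL11, a cytokine, averaged 9.72 ± 0.58 CPM with siRNA-1, 9.96 ± 0.96 CPM with siRNA-2 and 2.495 ± 0.13 CPM with scrambled, a rise of 1.96 and 1.99 (edgeR adjusted p = 3.00e-15 and 1.79e-15). CCND1, cyclin D1, a cell cycle gene that ERK induces in many cells, fell by 0.67 and by 0.45 (edgeR adjusted p = 1.01e-13 and 1.34e-10).

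**Figure D5:**
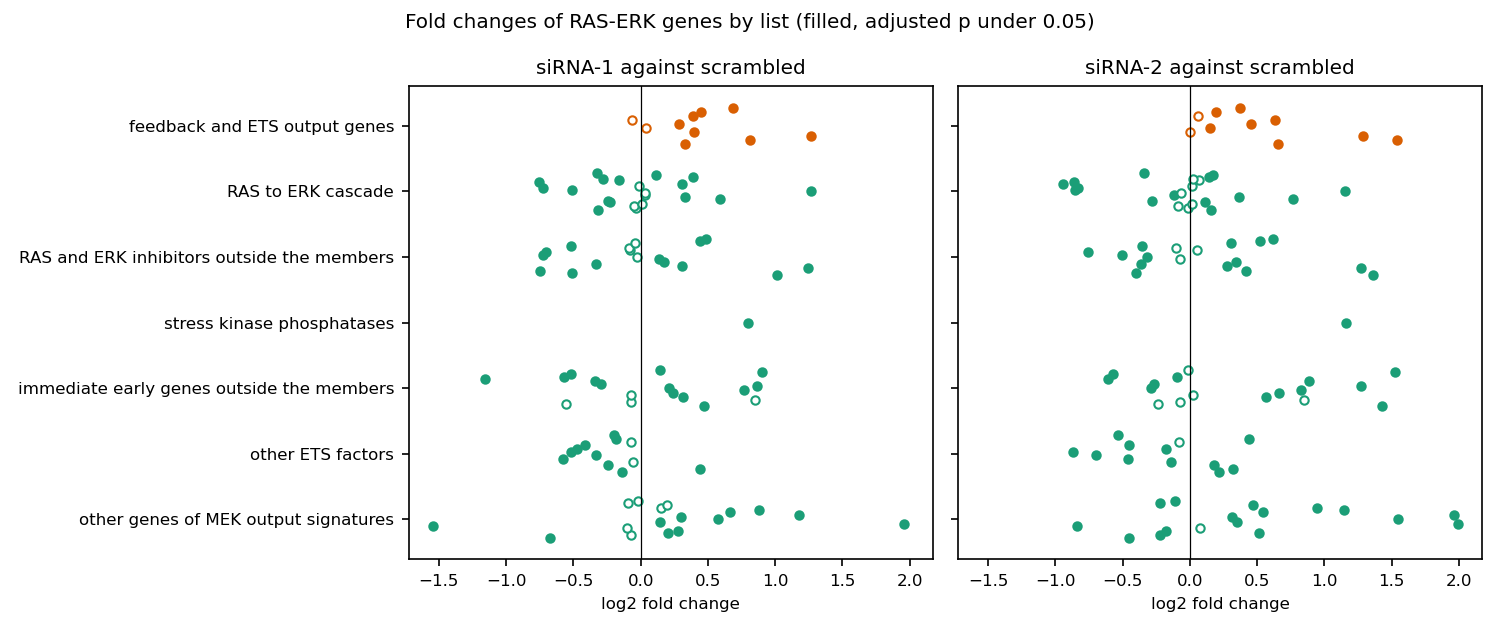
Log2 fold changes (horizontal axes) of each siRNA against scrambled for the 10 feedback and output genes (orange, top row) and for 6 lists of RAS to ERK pathway genes (green); each point is 1 gene, filled where the adjusted p was under 0.05. The called feedback and output genes all lie right of 0, while the cascade and inhibitor lists lie on both sides and the other ETS factors lie mostly left.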

How the data were processed

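The authors deposited 1 table of whole-number read counts per interval for 12 libraries of A172 cells, 4 per group, with no normalization. Salmon and the hg38 build are named in the submitters' processing notes. How reads were assigned to intervals, and with which program, is not stated there. Of 49731 intervals, 44755 were used. Left out were 962 ultraconserved or random regions, 1981 that reach over 100 kb beyond the gene, 1096 under an older name, 787 with the same counts as another, 69 unmatched and over 1 Mb, 31 of ribosomal RNA, 28 with a number for a name and 22 copies on chromosome Y. Intervals span whole genes and may share reads with overlapping intervals on either strand.

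Counts were tested with edgeR 4.0.16 (R 4.3.3; limma 3.58.1): TMM scaling, filterByExpr with a count of at least 10 and a total of 15, and a robust quasi-likelihood model of group over the 12 libraries, two-sided, with Benjamini-Hochberg adjustment and a threshold of 0.05. SE is the absolute log2 fold change over the square root of F. Libraries held 42740241 to 52899850 reads in the intervals used, and CPM was computed with TMM-scaled library sizes. Alternatives were DESeq2 1.42.0, its size factors, other filters, other gene sets, a replicate block and left-out libraries. On simulated counts for siRNA-1 against scrambled with 200 changed genes, 37, 43, 49 and 50 of 50 were called at 1.3, 1.5, 2 and 4-fold, as were 11 of 23993 unchanged genes. In the data 53.4% of genes were called with siRNA-1, far more than were changed in the simulation, so its rates need not hold there. Replicates differed beyond sampling noise (chi-square per gene 3.09 to 11.1), so none were merged. Tables used Python 3.11.15, pandas 2.3.3, numpy 2.4.6 and scipy 1.17.1, figures matplotlib 3.10.9.

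The 10 genes and all lists were chosen with earlier results of these data known. All 10 are named. From each list up to 4 genes with the smallest p in either comparison with scrambled are named, plus the 3 nearest protein-coding genes of each of the 10 and genes that overlap them. Of these, 1 gene is not reported here. HRAS, RPS6KA1, SPRY3, DUSP8, DUSP16 and IER3 had no interval that was used, and DUSP2, EGR2, ERG, EREG and AREG had too few reads to test. Promoter sequences are RefSeq's (GRCh38.p14).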

Additional observations from a re-analysis of the deposited data

Results flagged for a closer look

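For 8 of the 10 genes the siRNA-2 and siRNA-1 libraries differed in edgeR's quasi-likelihood test of the difference itself, in which the scrambled libraries cancel out. The log2 fold change of siRNA-2 against siRNA-1 was 0.73 for DUSP5, 0.70 for FOSL1, 0.32 for DUSP4 and 0.17 for ETV5. It was -0.40 for EGR1, -0.33 for SPRY1, -0.32 for SPRY4 and -0.25 for SPRY2. In this comparison 32.6% of all tested genes were called.

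In 30 groups of 4 libraries, 1 library lay far from the other 3: scrambled replicate 1 had 13.5 CPM of DUSP6. Chance alone gives such a library in about 1 in 20 groups. Its distance from the other scrambled libraries, at 12.9 CPM each, is small beside the siRNA groups at 28.99 CPM and above.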

How the results depend on the processing

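No called fold change among the 10 genes changed sign under any alternative run, and every count of called members and list genes stayed within 1.5 times its value. Leaving out 1 library at a time gave 8 to 9 called members for siRNA-1, 8 for siRNA-2 and 7 to 8 between the siRNAs, and 60 to 65, 63 to 69 and 44 to 49 called list genes. Of the 25237 to 25358 genes tested in these runs, 12442 to 12804, 13152 to 13635 and 7058 to 7537 were called, in the same order. FOSL1 was also called lower with siRNA-1 when protein-coding intervals only (edgeR adjusted p = 0.0338) or all named intervals (0.0246) were fitted, or without the 3 libraries that stood apart (0.0396). The SPRY1 difference between the siRNAs was lost with no filter (0.0900) and with only those 2 groups fitted (0.0543), and the ETV4 difference was gained with a filter of 1 CPM in 4 libraries (0.0379) and with protein-coding intervals only (0.0372). The causes were not tested. Other scalings moved the median of all genes by at most 0.06 on the log2 scale. No gene had several protein-coding intervals, so that alternative had nothing to change. SPRY1, with 100 to 163 reads a library, is the gene that depth limits most. The deposited counts carry no strand, so overlaps can be bounded but not separated.

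No pairing by replicate number was seen: deviations of same-numbered libraries correlated at -0.12 to 0.10, and 0 of 12 libraries correlated best with their own number. Such correlations cannot exclude that same-numbered libraries were handled together, and the labels do not say. With the replicate number as a block, 8 members were called in each comparison. Of all 24900 genes tested in that run, 13191 were called with siRNA-1, 13912 with siRNA-2 and 8024 between the siRNAs. For DUSP6 the log2 fold change was 1.27 with siRNA-1 and 1.29 with siRNA-2. The block changed no call among the 10 genes.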

Other observations

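Several of the 10 genes were highest in the same library within a group. How many of all tested genes peaked in the same libraries was not counted, so nothing particular to these genes can be read from it. Within siRNA-2, replicate 1 was the highest library for DUSP4 (189 CPM), DUSP5 (45.1 CPM), DUSP6 (35.6 CPM), SPRY4 (23.5 CPM), ETV4 (34.3 CPM) and FOSL1 (187 CPM). Within siRNA-1, replicate 3 was the highest for DUSP4 (148 CPM), DUSP5 (28.2 CPM), DUSP6 (32.5 CPM), ETV4 (32.5 CPM), ETV5 (85.4 CPM) and FOSL1 (112 CPM), and it held a 45S ribosomal RNA share of 15.01%. SPRY2 and EGR1, which were close to each other over the 12 libraries, were both highest within siRNA-1 in replicate 1, at 22.4 and 21.6 CPM. The part of library quality in these values was not tested.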
